A study of Mus musculus with 30 samples.

Results

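The gastrocnemius, a calf muscle of the hind limb, was compared between mice whose spinal cord was transected at the ninth thoracic level (T9, low thoracic) and sham-operated mice. The 8 libraries were those whose titles name the gastrocnemius with T9 transection (4 libraries) or sham surgery (4 libraries), of 30 libraries in the series, and every gene of the expression table was taken. The other libraries are 4 of the gastrocnemius after transection at the high-thoracic T3 level and 18 of the triceps brachii in the forelimb. All mice were male and were sampled 3 days after surgery. Strain, age, drugs given around surgery and what the sham operation involved were not given in the sources used here. Library descriptions carry a different animal number for each of the 8 gastrocnemius libraries, which were read here as 8 mice. That reading is an inference, and p-values measure the spread between these libraries. The T9 group differs from sham in the lesion and in everything that followed from it within 3 days, and these cannot be told apart. Whole muscle was extracted, so that fewer cells of a type and less RNA per cell cannot be told apart.

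A low-thoracic lesion cuts the paths that descend from the brain to the lumbar motor neurons, while those neurons and their axons to the calf muscles are left in place. Muscle fibres that lose electrical activity are known to switch on genes that innervation normally keeps silent away from the synapse, such as acetylcholine receptor subunits and the transcription factor myogenin, in part through the histone deacetylase HDAC4. In parallel, FoxO transcription factors raise the ubiquitin ligases atrogin-1 (Fbxo32) and MuRF1 (Trim63), which mark muscle proteins for the proteasome, while genes of energy supply are commonly lowered in wasting muscle.

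Libraries held 15.5 to 21.4 M reads (M for 1e+06) in the genes of the table. Values below are CPM (reads per M reads of the library) in replicates 1 to 4 of each group, changes are T9 minus sham on the log2 scale ± SE, and tests are limma with Benjamini-Hochberg adjustment over 11248 genes. The median log2 value per library came to 3.90 ± 0.18 in sham and 4.30 ± 0.02 after T9 (SD, n = 4), so the median gene was 0.40 higher after T9. Changes are to be read against that shift. Among the 11248 genes, 3917 had all 4 T9 values above every sham value, and 542 had all 4 below. Statements below that the groups did not overlap are to be read against these counts. For higher values such separation was common and by itself does not set a gene apart. Genes are said to have risen or fallen only where adjusted p was below 0.05 both as deposited and after each library was centred on its median. As deposited, 4226 genes were called higher (37.6%) and 638 lower (5.67%). After centring, the calls were 1247 higher and 1397 lower. In both scalings 1247 genes were called higher (11.1%) and 638 lower (5.67%), and no gene was called in opposite directions. The percentages 11.1 and 5.67 are the background for list counts of genes that rose or fell. List counts as deposited stand against 37.6% higher and 5.67% lower. Those after centring stand against 1247 higher and 1397 lower of 11248 genes. Those with sham replicates 2 and 3 only, described next, stand against 3381 higher and 714 lower of 11241 genes.

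Sham libraries 1 and 4 stood apart from sham libraries 2 and 3, sham 4 more so than sham 1. Across genes, Pearson's r was 0.972 between sham 1 and 4 and 0.983 between sham 2 and 3. Sham 4 had an r of 0.893 with sham 2 and 0.9115 with sham 3. Sham 1 lay in between, with an r of 0.952 with sham 2 and 0.963 with sham 3. T9 pairs lay between 0.983 and 0.991. The difference went with transcript length. The median CPM of the 2810 genes with the shortest transcripts, divided by that of the 2810 with the longest, was 1.31, 0.689, 0.738 and 1.88 in sham 1 to 4 and 0.919, 0.692, 0.636 and 0.724 in T9 1 to 4. Sham 2 and 3 lay within the range of the T9 libraries in this ratio, and sham 1 and 4 lay above it. The same 2 sets of genes had a median change of 0.046 (shortest; 4.77% rose and 11.4% fell) and 0.59 (longest; 14.7% rose and 1.96% fell). The part of this length difference in the results was not tested. Each list below was therefore also compared with sham 2 and 3 only, a choice made after seeing the data. Of the 1247 genes that rose, 1224 were also called higher with sham 2 and 3 only, and 452 of the 638 that fell were also called lower. Leaving out each of the 8 libraries in turn kept all 1247 that rose and 379 of the 638 that fell. All comparisons with sham 2 and 3 only or without a library were made as deposited and not after centring. They therefore did not check the rises against the shift of the median gene. Of 10 skeletal muscle fibre markers all were measured, with a summed level of 117467 to 168824 CPM in sham and 129138 to 152762 CPM after T9.

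**Figure D1:**
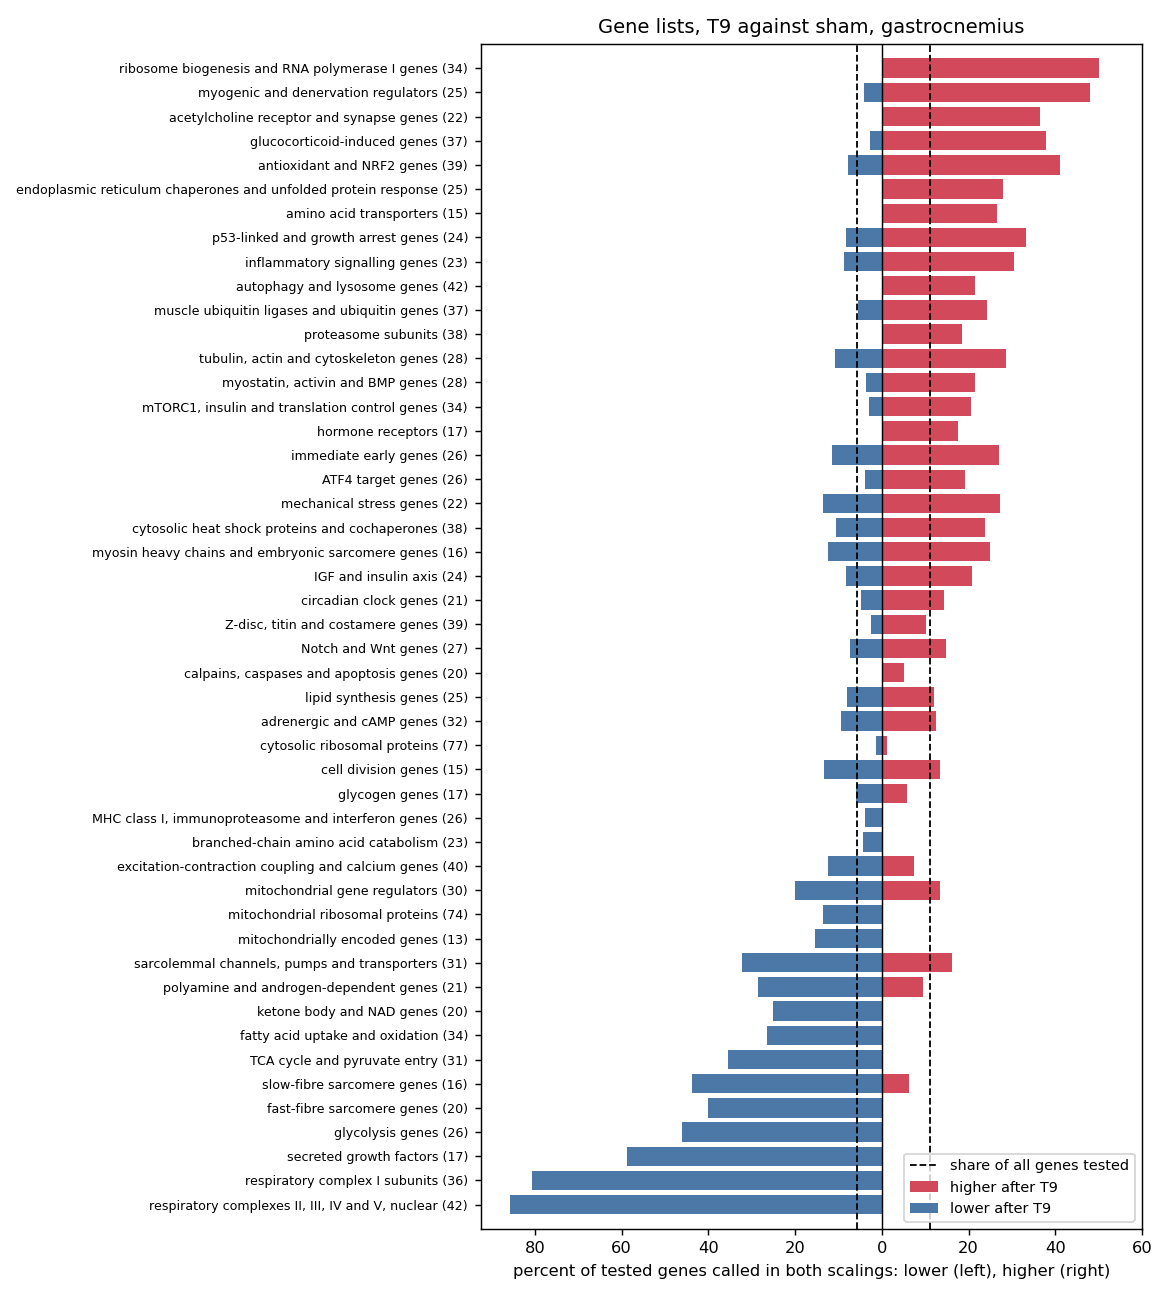
Share of each gene list that was called lower (blue, left) or higher (red, right) after T9 both as deposited and after median centring, in percent of the members tested, whose number stands in parentheses. Dashed lines mark the shares over all genes tested, 5.67% lower and 11.1% higher. Respiratory chain lists lie far to the left, and ribosome biogenesis, myogenic regulator and antioxidant lists lie to the right.

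The genes of the muscle side of the neuromuscular synapse and the regulators of the myogenic programme come first. Stretches of DNA before a listed start of 4 synapse genes and of Myog are shown. They let the start regions of genes that rose be read beside that of Chrne, a subunit gene of the adult receptor that was not called. The windows are the 250 bases before a listed start of each gene, 5′ to 3′ on the strand of the gene, from RefSeq on GRCm38.p6. That start can lie inside the gene. The Musk gene begins at base 58285729, so most of its window lies within the gene. Those of Chrnb1 and Chrne overlap the gene by a short stretch, with gene ends at 69795966 and 70619213. Those of Chrna1 and Myog lie wholly upstream. Capitals mark matches to CANNTG, the E-box bound by myogenin and its relatives, and to CTANNNNTAG, a form of the MEF2 motif. Both motifs read the same on either strand as patterns, so that a match counts for both strands.
Chrna1: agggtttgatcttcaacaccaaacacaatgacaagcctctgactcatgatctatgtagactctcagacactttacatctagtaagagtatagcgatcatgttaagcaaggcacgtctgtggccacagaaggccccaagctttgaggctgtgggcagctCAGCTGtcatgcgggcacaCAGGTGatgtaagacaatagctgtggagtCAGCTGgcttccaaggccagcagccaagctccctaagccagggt
Chrnb1: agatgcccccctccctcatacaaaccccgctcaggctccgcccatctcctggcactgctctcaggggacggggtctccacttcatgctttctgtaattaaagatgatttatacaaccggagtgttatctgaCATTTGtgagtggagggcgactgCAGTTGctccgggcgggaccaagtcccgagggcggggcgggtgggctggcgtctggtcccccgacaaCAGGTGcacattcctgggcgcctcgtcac
Musk: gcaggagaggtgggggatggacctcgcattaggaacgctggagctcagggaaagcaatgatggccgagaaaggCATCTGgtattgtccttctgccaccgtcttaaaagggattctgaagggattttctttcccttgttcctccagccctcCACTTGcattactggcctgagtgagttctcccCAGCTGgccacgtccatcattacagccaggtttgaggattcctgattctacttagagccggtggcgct
Myog: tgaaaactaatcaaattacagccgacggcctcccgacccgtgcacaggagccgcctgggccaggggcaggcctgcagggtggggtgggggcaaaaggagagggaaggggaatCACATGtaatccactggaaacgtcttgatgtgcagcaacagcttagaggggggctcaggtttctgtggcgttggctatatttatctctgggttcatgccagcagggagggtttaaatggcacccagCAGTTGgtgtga
Chrne: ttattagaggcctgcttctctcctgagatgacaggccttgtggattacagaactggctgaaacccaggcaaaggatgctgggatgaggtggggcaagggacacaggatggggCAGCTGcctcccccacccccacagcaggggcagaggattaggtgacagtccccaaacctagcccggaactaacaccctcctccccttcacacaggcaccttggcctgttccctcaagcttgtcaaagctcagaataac
The Chrna1 window (chr2:73580339-73580588, minus strand) holds 3 CANNTG matches, 2 of them CAGCTG, and that of Chrnb1 (chr11:69795938-69796187, minus strand) holds 3 with no CAGCTG. Musk (chr4:58285712-58285961, plus strand) has 3, 1 of them CAGCTG. Myog (chr1:134289754-134290003, plus strand) has 2, and Chrne (chr11:70619195-70619444, minus strand) has 1, which is CAGCTG. None of these 5 windows holds CTANNNNTAG. Such matches are common: 66.0% of 27025 promoter windows of this length hold CANNTG, and so do 56.3% of those of the 8373 tested genes with a window. At least 3 matches were in 6.28% of tested genes. Among genes that rose and have a window, CANNTG was in 55.8% of 989, and among genes that fell in 63.3% of 444. Genes that rose did not all have several matches. Among the further windows looked up, those of Hdac4 and Myf5, which rose, hold 0 CANNTG matches, but both windows lie within the bounds of the gene. Those of Erbb2, Gadd45a and Ankrd1, which rose too, hold 1 each, and that of Utrn, which was called higher only as deposited, holds 7. For Chrnd no window was found. A match is a run of letters and says nothing of whether a factor binds there.

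The genes of 3 receptor subunits were higher in every T9 library than in any sham library, as were 3917 genes in all. Chrnd, the delta subunit, stood at 1.04, 2.32, 2.24 and 0.948 CPM in the sham libraries and 53.5, 25.8, 42.5 and 64.04 CPM in the T9 libraries. The lowest T9 library lay above every sham library (log2 change 4.85 ± 0.39, limma adjusted p = 6.7e-06). Its gene lies on chromosome 1, bases 87190597 to 87200070 of GRCm38.p6. Chrna1, the alpha subunit that carries the binding site for acetylcholine, was at 10.3, 12.3, 15.01 and 7.44 CPM in the sham libraries and 130.2, 70.4, 95.6 and 162 CPM in the T9 libraries. The groups did not overlap (log2 change 3.32 ± 0.26, limma adjusted p = 5.8e-06). For Chrnb1, the beta subunit, the values were 18.00, 17.95, 23.9 and 10.4 CPM in the sham libraries and 80.1, 75.7, 72.5 and 102 CPM in the T9 libraries. All T9 values lay above all sham values (log2 change 2.28 ± 0.22, limma adjusted p = 1.8e-05). Chrne, in contrast, was at 10.3, 12.7, 12.8 and 7.09 CPM in the sham libraries and 14.2, 11.7, 12.6 and 16.4 CPM in the T9 libraries, and its change of 0.38 ± 0.20 is close to the shift of the median gene (limma adjusted p = 0.13; after centring -0.01). That the change of Chrne differs from those of the other subunits was not tested. Chrng, the gene of the gamma subunit, was not among the genes tested, so the set of subunits is incomplete.

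Beyond the receptor, the genes that organise the synapse moved unevenly. Musk, the receptor kinase through which nerve-derived agrin clusters receptors, was at 19.04, 26.6, 20.8 and 11.4 CPM in the sham libraries and 62.9, 86.3, 117 and 91.1 CPM in the T9 libraries, without overlap (log2 change 2.23 ± 0.26, limma adjusted p = 8.9e-05). Ncam1, an adhesion molecule that spreads over denervated fibres, was at 2.78, 3.42, 4.30 and 1.60 CPM in the sham libraries and 13.7, 11.9, 14.2 and 26.01 CPM in the T9 libraries, also without overlap (log2 change 2.45 ± 0.30, limma adjusted p = 0.00011). Rapsn, which anchors the receptor, and Colq, the collagen tail of acetylcholinesterase, rose by 1.0 and 1.11. Ache, acetylcholinesterase itself, had a change of -0.53 ± 0.27 and was not called as deposited (limma adjusted p = 0.12); after centring it was called lower (-0.93, limma adjusted p = 0.0068), as it was without sham replicate 4 (-0.86, limma adjusted p = 0.0013). Rapsn, Colq and Ache were picked after their values were seen. Of 22 synapse genes tested, 8 rose (Chrna1, Chrnb1, Chrnd, Musk, Rapsn, Colq, Erbb2 and Ncam1) and 0 fell, with a median change of 0.88 beside 0.40 for all genes. With sham 2 and 3 only, 9 were called higher and 3 lower.

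**Figure D2:**
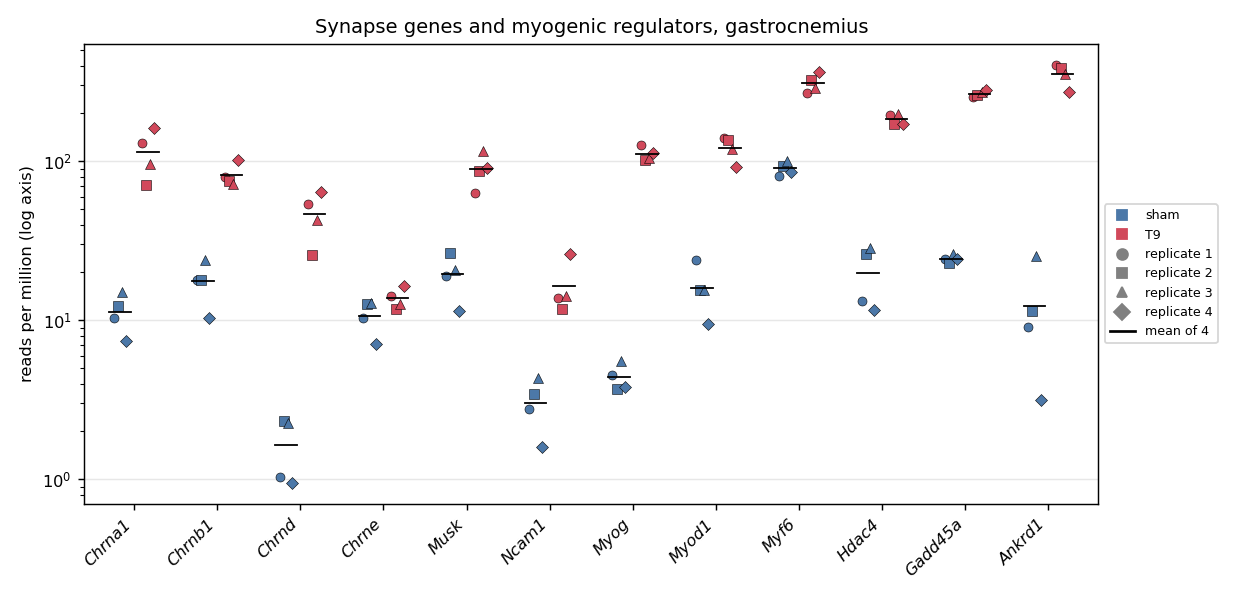
CPM (log axis) of synapse genes and myogenic regulators in sham (blue) and T9 (red) gastrocnemius, with 1 symbol shape per replicate number and a black line at the mean of 4 libraries. T9 symbols of Chrnd and Myog lie far above all sham symbols, and those of Chrne overlap the sham symbols.

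Transcription factors of the myogenic programme rose as well. Myog, myogenin, was at 4.52, 3.68, 5.52 and 3.79 CPM in the sham libraries and 127, 102, 105 and 113 CPM in the T9 libraries. Every T9 library lay above every sham library (log2 change 4.68 ± 0.48, limma adjusted p = 2.6e-05). Its relatives Myod1 (log2 change 2.98 ± 0.73, limma adjusted p = 0.0071), Myf6 (log2 change 1.78 ± 0.14, limma adjusted p = 4.7e-06) and Myf5 (log2 change 1.27 ± 0.27, limma adjusted p = 0.0031) rose too, the last from a few CPM (1.55, 0.840, 1.5 and 1.35 CPM in the sham libraries and 3.03, 3.95, 2.28 and 3.39 CPM in the T9 libraries). Hdac4, the deacetylase that relays inactivity to the nucleus, was at 13.3, 26.2, 28.3 and 11.5 CPM in the sham libraries and 194, 172, 199 and 171 CPM in the T9 libraries. The groups stood clearly apart (log2 change 3.32 ± 0.25, limma adjusted p = 3.6e-06). Gadd45a, which HDAC4 is known to induce in denervated muscle, was at 24.4, 22.8, 25.96 and 24.4 CPM in the sham libraries and 253, 261, 272 and 280.1 CPM in the T9 libraries. Its lowest T9 value was above its highest sham value (log2 change 3.45 ± 0.16, limma adjusted p = 7.2e-08). Its paralogue Gadd45b, named after its values were seen, fell by 2.27. Of 25 myogenic and denervation regulators tested, 12 rose and 1, Gadd45b, fell (median change 1.0).

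The genes with the largest rises included several of these and others of quite different roles. Rrad, a small GTPase that restrains calcium channels, was at 2.64, 5.36, 3.79 and 0.649 CPM in the sham libraries and 272, 121, 106 and 71.6 CPM in the T9 libraries, and all T9 values were far above sham (log2 change 5.67 ± 0.83, limma adjusted p = 0.00034). Ankrd1, a titin-associated repeat protein of strained and denervated muscle, was at 9.09, 11.4, 25.5 and 3.14 CPM in the sham libraries and 404, 386, 354 and 273 CPM in the T9 libraries. It too showed no overlap (log2 change 5.19 ± 0.70, limma adjusted p = 0.0002). Aif1l, an actin-bundling protein, rose by 4.77, and Cdkn1a, the cell cycle inhibitor p21, by 4.03. The remaining genes among the 15 with the largest rises, beside Chrnd, Myog, Chrna1 and Gadd45a, were Lpin2 (3.90), a phosphatidate phosphatase, Krt80 (3.89), a keratin, Dll1 (3.68), a Notch ligand, Eda2r (3.67), the receptor of ectodysplasin A2, Sik1 (3.65), a salt-inducible kinase, Tnfrsf23 (3.53), a decoy receptor, and Ampd3 (3.48), an AMP deaminase. Values in parentheses are log2 changes. Krt80 had few reads in sham, and its change was 2.57 with a pseudocount of 1 CPM.

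The steepest falls left Lrrc52, Dok5 and Bdh1 at low levels. Lrrc52, an auxiliary subunit of potassium channels, had 88, 32, 46 and 33 reads in sham and 1, 0, 2 and 0 reads after T9. That is 2.55 reads per M over the sham group (exact Poisson 95% interval 2.21 to 2.93) and 0.0422 over the T9 group (0.0087 to 0.123), intervals that cover counting error only. Dok5, a docking protein of receptor tyrosine kinases, had 57, 48, 61 and 19 reads in sham and 2, 4, 2 and 2 after T9, or 2.37 (2.04 to 2.74) and 0.141 (0.0674 to 0.259) reads per M. Fold changes of these 2 genes depend on the pseudocount, with log2 changes of -1.68 and -1.5 when 1 CPM is added. Lrrc52 passed the filter for low values only through the sham libraries. Dok5 would not have passed it without sham replicate 1, 2 or 3. Entry of both genes into the test thus rested on high sham values, which favours a fall. Bdh1, which turns the ketone body beta-hydroxybutyrate into acetoacetate, was at 34.8, 44.2, 46.7 and 21.6 CPM in the sham libraries and 1.15, 2.03, 1.07 and 1.36 CPM in the T9 libraries, a fall seen in every T9 library (log2 change -4.67 ± 0.37, limma adjusted p = 6.7e-06). Others among the 15 steepest were Perm1 (-3.67), a muscle regulator of mitochondrial genes, Myl2 (-3.53), the slow myosin regulatory light chain, Nmrk2 (-3.24), the muscle kinase of nicotinamide riboside, Fgfbp1 (-3.12), a carrier of fibroblast growth factors, Nrep (-3.01), Mettl21c (-2.82), a lysine methyltransferase, Smco1 (-2.72), Smox (-2.61), spermine oxidase, Mlf1 (-2.47), Ntf5 (-2.46), the neurotrophin NT-4, Actc1 (-2.37), cardiac actin, and Ighm (-2.34), the heavy chain of immunoglobulin M.

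Protein breakdown genes rose in part. Fbxo32, atrogin-1, was at 204, 325, 265 and 134 CPM in the sham libraries and 642, 1133, 1421 and 1313 CPM in the T9 libraries. The T9 values were all above the sham values (log2 change 2.29 ± 0.29, limma adjusted p = 0.00013). Trim63, MuRF1, was at 422, 232, 252 and 189 CPM in the sham libraries and 548, 697, 954 and 1099 CPM in the T9 libraries, again without overlap (log2 change 1.61 ± 0.27, limma adjusted p = 0.00085). The FoxO factors that drive both ligases rose as well, Foxo1 by 1.66 and Foxo3 by 1.59. Nploc4, a cofactor of the unfoldase VCP that pulls ubiquitinated proteins out of complexes, rose by 1.46, and the ligase Fbxo30 (MUSA1) by 0.94. Of 37 ubiquitin ligase and ubiquitin genes tested, 9 rose (Fbxo32, Trim63, Fbxo30, Fbxo31, Ubr1, Usp14, Ufd1, Vcp and Nploc4) and 2 fell (Fbxo9 and Asb5), with a median of 0.62.

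Proteasome subunits were higher in summed level, and most of the single subunits called were called only as deposited. Their sum over 38 genes was 5277, 4638, 4649 and 5381 CPM in sham and 7864, 8069, 7330.0 and 8607 CPM after T9. The sums did not overlap. As deposited 23 of 38 were called higher, 33 with sham 2 and 3 only, and 7 rose (median 0.55): the ATPase Psmc1, the non-ATPase subunits Psmd1, Psmd2, Psmd3, Psmd4 and Psmd11, and the ubiquitin receptor Adrm1. Psmd2, a scaffold subunit of the base of the cap, was at 281, 444, 418 and 213 CPM in the sham libraries and 792, 914, 887 and 1042 CPM in the T9 libraries (log2 change 1.48 ± 0.20, limma adjusted p = 0.00022). Psmd11, a subunit of the lid, was at 92.6, 109, 117 and 70.9 CPM in the sham libraries and 189, 199.6, 187 and 208 CPM in the T9 libraries (log2 change 1.03 ± 0.15, limma adjusted p = 0.00038). Neither gene overlapped between groups.

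Lysosomal genes rose in part. Ctsl, the protease cathepsin L, was at 89.9, 82.7, 92.5 and 68.6 CPM in the sham libraries and 430.5, 424, 381 and 373 CPM in the T9 libraries, with no overlap (log2 change 2.28 ± 0.22, limma adjusted p = 1.7e-05). Atp6v1a, the catalytic subunit of the proton pump that acidifies lysosomes, was at 15.2, 17.1, 16.7 and 10.6 CPM in the sham libraries and 46.9, 50.6, 52.99 and 62.2 CPM in the T9 libraries (log2 change 1.85 ± 0.19, limma adjusted p = 2.9e-05). Cd63, a membrane protein of late endosomes, rose by 0.99, and Wipi2, which acts in the formation of autophagosomes, by 0.72. In the lysosome and autophagy list 9 of 42 genes rose and 0 fell (median 0.55), with 26 called higher as deposited. Among 20 calpain, caspase and apoptosis genes 1 rose, Capn2 (log2 change 0.87 ± 0.13, limma adjusted p = 0.00039), the large subunit of m-calpain, and 0 fell (median 0.33).

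Genes of growth signalling moved in both directions. Igf1, the growth factor that muscle makes for itself, was at 15.2, 21.6, 21.9 and 24.2 CPM in the sham libraries and 7.65, 12.4, 16.9 and 8.63 CPM in the T9 libraries. Its level fell (log2 change -0.91 ± 0.32, limma adjusted p = 0.036), but the call was lost with sham 2 and 3 only (limma adjusted p = 0.053) and without any 1 of T9 replicates 1, 2 and 4 or sham replicates 2, 3 and 4 (limma adjusted p = 0.051 to 0.1). Igf1r, its receptor, rose by 1.26, and Igfbp5, a binding protein that denervated muscle makes, was at 209, 336, 399 and 117 CPM in the sham libraries and 876, 822, 962 and 1119 CPM in the T9 libraries (log2 change 1.97 ± 0.37, limma adjusted p = 0.0017). Akt1, the kinase downstream, rose by 1.03. Of 24 genes of the IGF and insulin axis 5 rose and 2 fell, Igf1 and the glucose transporter gene Slc2a4 (median 0.31). Mstn, myostatin, a negative regulator of muscle mass, had a change of 1.04 ± 0.21 that was called as deposited (limma adjusted p = 0.0025) and not after centring (limma adjusted p = 0.068). Smad3, which passes on its signal, was at 70.2, 106, 80.5 and 36.3 CPM in the sham libraries and 233, 257, 293 and 279 CPM in the T9 libraries (log2 change 1.95 ± 0.27, limma adjusted p = 0.00022). Acvr2a, a receptor of activin and myostatin, and Tgfb2, a ligand of the TGF-beta family, rose by 1.52 and 1.67. In the list of 28 myostatin, activin and BMP genes 6 rose and 1 fell (median 0.63).

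Of the genes that make ribosomes, 17 of 34 rose. Ncl, nucleolin, was at 182, 201, 229 and 154 CPM in the sham libraries and 466, 419, 414 and 463 CPM in the T9 libraries (log2 change 1.22 ± 0.14, limma adjusted p = 8.5e-05). Ddx21, a helicase of the nucleolus, was at 40.05, 60.58, 64.3 and 26.4 CPM in the sham libraries and 116, 127, 135 and 145 CPM in the T9 libraries (log2 change 1.53 ± 0.23, limma adjusted p = 0.00037). Neither overlapped between groups. Polr1e, a subunit of RNA polymerase I, rose by 1.16, and Myc, which activates ribosome genes, by 2.78. None of these 34 fell (median 0.82), and 28 were called higher as deposited and 29 with sham 2 and 3 only. Their sum was 1207, 1284, 1326 and 1084 CPM in sham and 2351, 2185, 2183 and 2317 CPM after T9. The T9 sums were all above the sham sums. Among 34 genes of mTORC1, insulin and translation control, 7 rose and 1 fell (median 0.58): Eif4a1, the helicase of the cap complex, rose by 1.64, Eif4ebp1, which holds the cap-binding protein back, by 1.39, and Eif4e, the cap-binding protein, fell (log2 change -0.89 ± 0.15, limma adjusted p = 0.001). Slc43a2, a carrier of branched-chain amino acids, rose by 2.65, and 4 of 15 amino acid transporter genes rose in all, with 0 falling (median 0.52).

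Ribosomal protein genes themselves depended on which sham libraries were used. Of 77 cytosolic ribosomal protein genes, which have short transcripts (median 777.5 bases, against 2591 over all genes), 1 rose and 1 fell against 4 sham libraries (median -0.07). With sham 2 and 3 only, 74 of 77 were called higher. Their summed level was 26960.1, 13214, 16027 and 47698 CPM in sham and 25531, 20659, 18802 and 22075 CPM after T9, so that all T9 sums lay above those of sham 2 and 3 and below those of sham 1 and 4. The 2 genes called against all sham libraries were the paralogues Rpl3 and Rpl3l. Rpl3, the general form, was at 64.03, 43.98, 52.2 and 103 CPM in the sham libraries and 252, 209, 194 and 249 CPM in the T9 libraries. Its T9 values were all above sham (log2 change 1.85 ± 0.29, limma adjusted p = 0.00055). Rpl3l, the form that replaces it in skeletal and heart muscle, was at 830.3, 528, 589 and 855 CPM in the sham libraries and 369, 341, 321 and 291 CPM in the T9 libraries. Here T9 values were all below sham (log2 change -1.06 ± 0.16, limma adjusted p = 0.00043). Rpl3 lies on chromosome 15 (80077781 to 80083406) and Rpl3l on chromosome 17 (24727826 to 24736143) of GRCm38.p6. Reads shared with near-identical copies or between the 2 genes could have been split by the counting, so that their levels are uncertain to that extent. Mitochondrial ribosomal proteins also hung on the sham libraries: 10 of 74 fell and 0 rose, while with sham 2 and 3 only 1 was called lower and 15 higher.

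**Figure D3:**
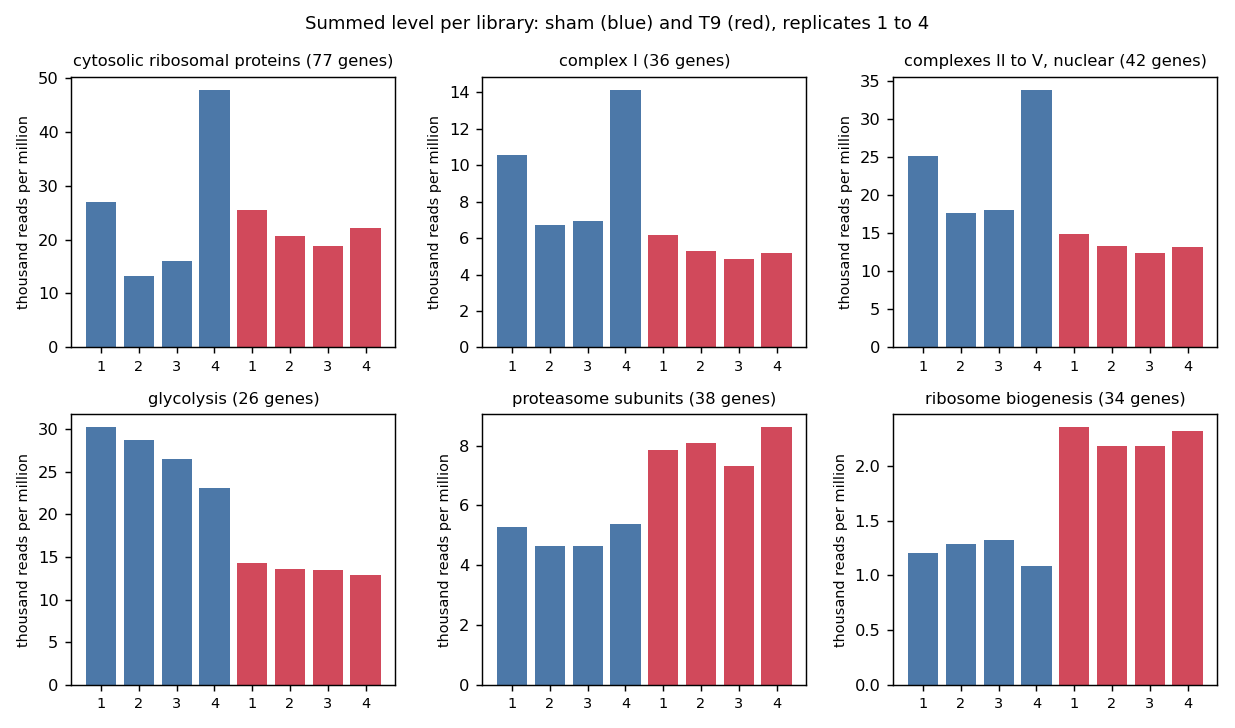
Summed CPM of gene lists in each library, sham replicates 1 to 4 in blue and T9 replicates 1 to 4 in red, each panel with its own axis that starts at 0. Proteasome and ribosome biogenesis sums are higher in all T9 libraries than in all sham libraries, whereas cytosolic ribosomal proteins spread from 13214 to 47698 CPM within sham alone.

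Defence against oxidants was among the lists with the most genes that rose. Pgd, which makes NADPH in the pentose phosphate pathway, was at 12.3, 15.1, 19.7 and 8.58 CPM in the sham libraries and 62.1, 60.03, 61.8 and 61.8 CPM in the T9 libraries, without overlap (log2 change 2.20 ± 0.20, limma adjusted p = 1.3e-05). Srxn1, sulfiredoxin, was at 30.2, 45.01, 26.3 and 22.3 CPM in the sham libraries and 144, 118, 134 and 80.4 CPM in the T9 libraries (log2 change 1.96 ± 0.23, limma adjusted p = 9.1e-05). Gstm2, a glutathione transferase, was at 51.8, 29.8, 48.2 and 31.1 CPM in the sham libraries and 119, 111, 110.0 and 110.1 CPM in the T9 libraries (log2 change 1.53 ± 0.19, limma adjusted p = 0.0001). Neither gene overlapped between groups. Nqo1, a quinone reductase and textbook target of NRF2, rose by 1.30. Of 39 antioxidant and NRF2 genes 16 rose and 3 fell (median 0.83), the last being Prdx5, Sod2 and Mgst1, of which Sod2 and Prdx5 encode enzymes found in mitochondria. Metallothioneins, small metal-binding proteins, rose with them: Mt2 was at 2.97, 0.581, 1.08 and 2.30 CPM in the sham libraries and 12.6, 10.5, 14.2 and 10.8 CPM in the T9 libraries (log2 change 3.02 ± 0.38, limma adjusted p = 0.00013), and Mt1 rose by 1.98. Slc39a14, which carries zinc into cells, rose by 1.77, and Slc30a2, which carries zinc out of the cytosol, changed by -1.53 and fell.

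Chaperone genes rose in part. Of 25 genes of endoplasmic reticulum chaperones and the unfolded protein response 7 rose and 0 fell (median 0.77), and 21 were called higher as deposited. Among them, Canx, the lectin chaperone calnexin, rose by 1.21 and Xbp1, a transcription factor of that response, by 1.01. Of 38 cytosolic heat shock genes 9 rose and 4 fell (median 0.56). Hsp90ab1, a constitutive HSP90, was at 1004, 1577, 1523 and 754 CPM in the sham libraries and 3135, 2984, 3018 and 3565 CPM in the T9 libraries (log2 change 1.45 ± 0.21, limma adjusted p = 0.0003), with no overlap, and Hsf1, the factor that activates heat shock genes, rose by 1.05. Of 26 ATF4 target genes 5 rose and 1, Ddit3, fell (median 0.63).

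Genes that glucocorticoids are known to induce rose in part, and Fkbp5 did not pass the test. Of 37 such genes 14 rose and 1 fell (median 1.02), but the list shares Fbxo32, Trim63, Foxo1, Foxo3, Cdkn1a, Gadd45a and the metallothioneins with the lists above. Fkbp5, a cochaperone and a standard readout of the receptor, was at 156, 51.9, 154 and 72.7 CPM in the sham libraries and 118, 148, 135 and 132 CPM in the T9 libraries, with overlapping groups (log2 change 0.44 ± 0.30, limma adjusted p = 0.24). Nr3c1, the receptor itself, had a change of 0.41 ± 0.14, close to the shift of the median gene (limma adjusted p = 0.028 as deposited, 0.95 after centring and 0.055 to 0.074 without T9 replicate 1, 2 or 3). Errfi1, an inhibitor of the EGF receptor, was at 20.4, 24.5, 27.3 and 23.5 CPM in the sham libraries and 72.5, 71.3, 80.3 and 107 CPM in the T9 libraries (log2 change 1.78 ± 0.18, limma adjusted p = 2.2e-05), and Cebpb, a transcription factor, rose by 1.55. Dusp1, a phosphatase of MAP kinases, fell: it was at 40.9, 56.8, 53.8 and 39.3 CPM in the sham libraries and 13.2, 12.9, 10.2 and 9.24 CPM in the T9 libraries, and all T9 values were below sham (log2 change -2.06 ± 0.18, limma adjusted p = 9.7e-06). Among 17 hormone receptor genes, Nr3c2 (1.11), Esr1 (0.97) and Il6ra (2.07) rose, and 0 fell.

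Immediate early genes moved both ways. Jun, a subunit of AP-1, rose by 2.31, whereas Nr4a1, an orphan nuclear receptor that exercise and adrenergic signals induce, changed by -1.48 and fell with Dusp1 and Fos. Of the 26 genes of this list 7 rose and 3 fell (median 0.55), and with sham 2 and 3 only 6 were called lower. In the alternative NF-kappaB pathway, Nfkb2 was at 6.60, 19.2, 11.9 and 4.34 CPM in the sham libraries and 68.1, 77.6, 91.8 and 115 CPM in the T9 libraries (log2 change 3.26 ± 0.37, limma adjusted p = 5.5e-05). Relb, its partner, was at 5.32, 13.6, 7.76 and 4.64 CPM in the sham libraries and 26.9, 29.1, 26.95 and 35.01 CPM in the T9 libraries (log2 change 2.03 ± 0.26, limma adjusted p = 0.00015). The groups of both genes were apart. Tlr4, a receptor of innate immunity, rose by 1.82, while Ptx3, a soluble pattern receptor, and Il15, a cytokine that muscle secretes, fell, with changes of -1.80 and -1.87. In all, 7 of 23 inflammatory signalling genes rose and 2 fell (median 0.75). Of 24 p53-linked genes 8 rose and 2, Ccng1 and Tigar, fell (median 0.49), with 6 called lower after centring.

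Genes of energy supply fell in several pathways, the most of them in the respiratory chain. Of 36 nuclear genes of complex I, which passes electrons from NADH to ubiquinone, 29 fell and 0 rose (median -0.83). Of 42 nuclear genes of complexes II to V, 36 fell and 0 rose (median -0.85). Complex I genes summed to 10582, 6715, 6927 and 14125 CPM in sham and 6167, 5308, 4841 and 5179 CPM after T9, and those of complexes II to V to 25207, 17643, 18008 and 33821 CPM and 14944, 13379.7, 12363 and 13188 CPM. The T9 sums were all below the sham sums, more so against sham 1 and 4 than against sham 2 and 3. These are short transcripts (median 810 and 730 bases). With sham 2 and 3 only, 19 of 36 and 25 of 42 were called lower and 0 higher. Cyc1, cytochrome c1, was at 539, 406, 414 and 451 CPM in the sham libraries and 258, 223, 212 and 239 CPM in the T9 libraries (log2 change -0.95 ± 0.13, limma adjusted p = 0.00021). Ndufs8, an iron-sulfur subunit of complex I, was at 211, 125, 129.7 and 303 CPM in the sham libraries and 105, 79.7, 81.4 and 88.6 CPM in the T9 libraries (log2 change -1.03 ± 0.24, limma adjusted p = 0.005). Neither overlapped, but the change of Ndufs8 was -0.53 with sham 2 and 3 only.

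For transcripts made inside mitochondria the count of calls depended on the scaling. The 13 mitochondrially encoded protein genes summed to 102547, 91168, 93856 and 117168 CPM in sham and 87131, 87392, 77801 and 72894 CPM after T9, with all T9 sums below all sham sums. As deposited 2 of 13 were called lower (median -0.34) and after centring 10 (median -0.74), so that 2 fell in both scalings, mt-Co1 (-0.41) and mt-Co2 (-0.50). Both calls were lost with sham 2 and 3 only (limma adjusted p = 0.062 and 0.17; 0 of 13 were called then). They were lost too without T9 replicate 2, 3 or 4 or sham replicate 1 or 4, that of mt-Co1 also without T9 replicate 1 (limma adjusted p = 0.051 to 0.11), and with the 8 libraries fitted alone (limma adjusted p = 0.09 and 0.076). Of 31 genes of the TCA cycle and pyruvate entry 11 fell and 0 rose (median -0.28), with 21 called lower after centring and 15 with sham 2 and 3 only. Idh2, the mitochondrial NADP-dependent isocitrate dehydrogenase, was at 286, 170.4, 304 and 221 CPM in the sham libraries and 125, 101, 88.9 and 86.04 CPM in the T9 libraries (log2 change -1.27 ± 0.22, limma adjusted p = 0.001). Mdh1, the cytosolic malate dehydrogenase, was at 639, 392, 508 and 390.0 CPM in the sham libraries and 229, 214, 182 and 192 CPM in the T9 libraries (log2 change -1.21 ± 0.17, limma adjusted p = 0.00025). Neither overlapped between groups.

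Glycolysis genes fell in 12 of 26 cases. Tpi1, triosephosphate isomerase, was at 3322, 2025, 2161 and 2577 CPM in the sham libraries and 798, 732, 625 and 605 CPM in the T9 libraries, without overlap (log2 change -1.85 ± 0.17, limma adjusted p = 1.3e-05). Eno3, the muscle enolase, was at 8323, 5785, 6176 and 7241 CPM in the sham libraries and 2289.7, 1992, 1724 and 1780.1 CPM in the T9 libraries, also without overlap (log2 change -1.82 ± 0.16, limma adjusted p = 1.1e-05). Lactate dehydrogenase fell in both subunits, Ldhb from 214 to 55.3 CPM on average (log2 change -1.92 ± 0.20, limma adjusted p = 2.8e-05) and Ldha by 1.37. Pfkfb1, which sets the level of the activator of phosphofructokinase, changed by -1.79. Of 26 glycolysis genes 12 fell (Pfkfb1, Tpi1, Gapdh, Pgk1, Pgam2, Eno3, Ldha, Ldhb, Gpd1, Fbp2, Slc16a3 and Bpgm) and 0 rose (median -0.39), and 14 were called lower with sham 2 and 3 only. Their sum ranged from 23105 to 30217 CPM in sham and from 12898 to 14313 CPM after T9. Among 17 glycogen genes, Gbe1, the branching enzyme, rose by 1.68, Phkg1 fell, and the other 15 were not called in both scalings. After centring 5 of the 17 were called lower, and with sham 2 and 3 only 7.

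Genes of fat and ketone use fell in smaller numbers. Fabp3, the fatty acid binding protein of oxidative muscle, was at 666, 321, 489 and 677 CPM in the sham libraries and 169, 102, 100.3 and 123 CPM in the T9 libraries (log2 change -2.09 ± 0.29, limma adjusted p = 0.00026). Lpl, lipoprotein lipase, was at 691, 448, 707 and 661 CPM in the sham libraries and 204, 221, 172 and 161 CPM in the T9 libraries (log2 change -1.71 ± 0.18, limma adjusted p = 2.8e-05). Both showed no overlap between groups. Plin5, which ties lipid droplets to mitochondria, changed by -1.64 and Acaa2, a thiolase of beta-oxidation, by -1.20, and both fell. Of 34 genes of fatty acid uptake and oxidation 9 fell and 0 rose (median -0.19), with 16 called lower after centring. In ketone use, Oxct1, which activates acetoacetate, fell with Bdh1 (log2 change -0.80 ± 0.16, limma adjusted p = 0.0023). Nmrk2 was at 409, 651, 192 and 357 CPM in the sham libraries and 58.01, 24.6, 48.8 and 32.8 CPM in the T9 libraries, without overlap (log2 change -3.24 ± 0.45, limma adjusted p = 0.00022). Of 23 genes of branched-chain amino acid breakdown 1 fell and 0 rose (median 0.27).

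Regulators of mitochondrial genes moved both ways. Perm1 was at 235, 310.2, 227 and 120.2 CPM in the sham libraries and 21.5, 24.5, 12.8 and 11.2 CPM in the T9 libraries, and every T9 value was below every sham value (log2 change -3.67 ± 0.41, limma adjusted p = 5.1e-05). Its gene lies on chromosome 4, bases 156203262 to 156221307 of GRCm38.p6. Ppargc1a, the coactivator PGC-1alpha, was at 62.7, 49.4, 29.1 and 21.1 CPM in the sham libraries and 16.02, 14.8, 17.3 and 14.5 CPM in the T9 libraries (log2 change -1.25 ± 0.31, limma adjusted p = 0.0073), with no overlap. Esrra, the nuclear receptor through which PGC-1alpha acts on mitochondrial genes, changed by -1.18, and Rxrg, a retinoid X receptor of skeletal muscle, by -1.07. Of 30 mitochondrial gene regulators 6 fell (Perm1, Ppargc1a, Ppargc1b, Esrra, Ppara and Rxrg) and 4 rose (Pprc1, Ppard, Nrip1 and Prkaa1), among which Nrip1 encodes a corepressor of oxidative genes. After centring 10 of the 30 were called lower.

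**Figure D4:**
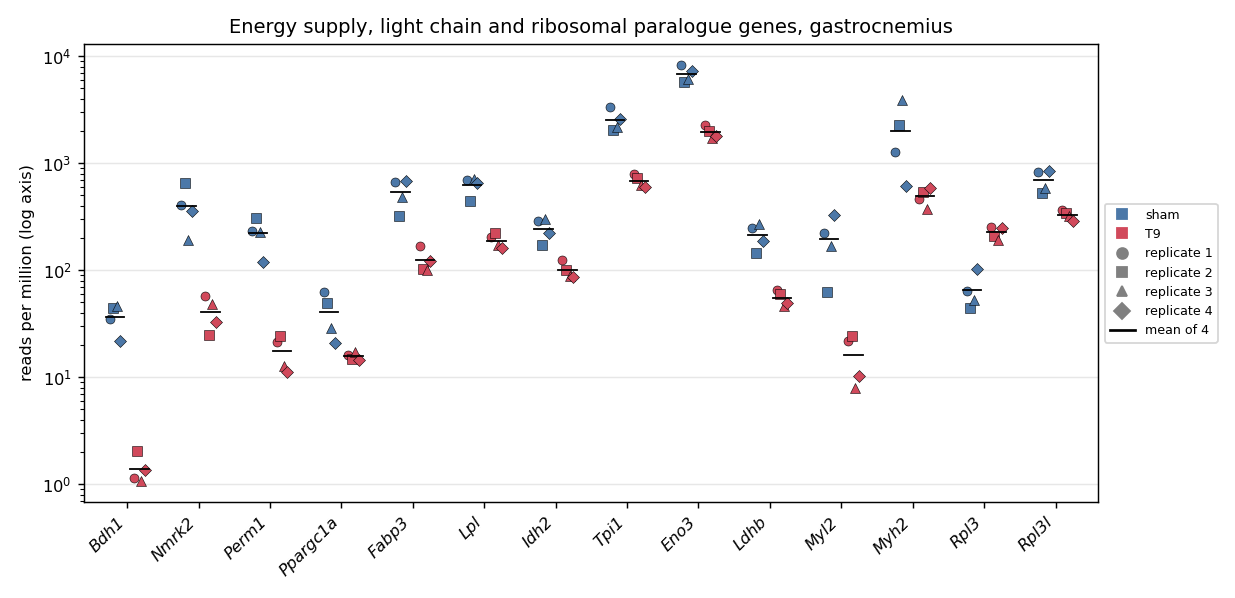
CPM (log axis) of energy supply, light chain and ribosomal paralogue genes in sham (blue) and T9 (red) gastrocnemius, with 1 symbol shape per replicate number and a black line at the mean of 4 libraries. All genes shown are lower after T9 except Rpl3, which is higher while its paralogue Rpl3l is lower.

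Slow and fast fibres differ in the forms of their sarcomere proteins. Of the slow-fibre list 7 of 16 genes fell, Myh2 of type IIa among them, and of the fast-fibre list 8 of 20. Myh4, Myh1 and Myh7 were not called. Among the adult myosin heavy chains, Myh2, the type IIa form, was at 1264, 2256, 3918 and 608 CPM in the sham libraries and 461, 536, 377 and 584 CPM in the T9 libraries and fell (log2 change -1.74 ± 0.46, limma adjusted p = 0.0099). The highest T9 value lay just below the lowest sham value, that of sham 4. Myh4, the IIb form, was at 24300.0, 52001, 49467 and 13582 CPM in the sham libraries and 38949, 41405, 53912 and 50489 CPM in the T9 libraries and was not called (log2 change 0.59 ± 0.35, limma adjusted p = 0.17); without sham replicate 2 it was called higher (0.85, limma adjusted p = 0.046). Myh1, the IIx form, was at 1696, 3425, 3477 and 784 CPM in the sham libraries and 2717, 5726, 3284 and 2894 CPM in the T9 libraries and not called (log2 change 0.81 ± 0.44, limma adjusted p = 0.15). Myh7, the slow form, was at 70.5, 7.75, 236 and 61.1 CPM in the sham libraries and 101, 201, 91.1 and 57.01 CPM in the T9 libraries, with overlapping groups (log2 change 0.93 ± 0.74, limma adjusted p = 0.31); without sham replicate 3 it was called higher (1.65, limma adjusted p = 0.043). The slow light chains, however, fell: Myl2 was at 223, 62.9, 168 and 329 CPM in the sham libraries and 21.7, 24.5, 7.92 and 10.2 CPM in the T9 libraries (log2 change -3.53 ± 0.46, limma adjusted p = 0.00015) and Myl3 changed by -1.66. With sham 2 and 3 only, the change of Myh2 was -2.62 and that of Myl3 -1.05. Sham values of Myl2 spanned a wide range, with sham 2 the lowest, and still lay above all T9 values. The 7 genes of the slow-fibre list that fell were Myl2, Myl3, Casq2, Myoz2, Myh2, Csrp3 and Mb, and 1, Sln, rose (median -1.01). Myh2 stands in that list although the IIa form is not the slow myosin.

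Of the 20 fast-fibre genes, Myh4 and Myh1 included, those that fell were Myl1, Mylpf, Tpm1, Casq1, Pvalb, Myoz1, Myoz3 and Pfkfb1. The other 12 were not called in both scalings (median of the 20, -0.36). Mylpf, the fast regulatory light chain, was at 14950.0, 9956, 8121 and 22469 CPM in the sham libraries and 6823, 5654, 5204 and 5397 CPM in the T9 libraries (log2 change -1.16 ± 0.25, limma adjusted p = 0.0039). Pvalb, the calcium buffer parvalbumin, was at 13796, 7728, 7506 and 19443 CPM in the sham libraries and 6707, 5415, 5374 and 4950.2 CPM in the T9 libraries (log2 change -1.0 ± 0.26, limma adjusted p = 0.0095). With sham 2 and 3 only, these changes were -0.65 and -0.45, and with quantile normalization Pvalb lost its call (-0.80, limma adjusted p = 0.068). Of 16 genes of myosin heavy chains and embryonic forms 4 rose (Myh3, Myh14, Myl4 and Tnnt2) and 2 fell (Myh2 and Actc1; median 0.64). Myl4, the embryonic light chain, rose by 1.75, Tnnt2, cardiac troponin T, by 1.26, and Myh14, a non-muscle myosin, by 2.20. Actc1 encodes cardiac actin. The change of Myh14 was 1.36 with sham 2 and 3 only. Of 39 Z-disc, titin and costamere genes 4 rose and 1 fell: Myom3, a protein of the M-band, rose by 2.16, and Pdlim3, a partner of alpha-actinin, by 1.62. After centring 7 of the 39 were called lower, and with sham 2 and 3 only 6 were called lower and 6 higher.

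Genes of membrane excitability and signalling moved both ways. Of 31 sarcolemmal channel, pump and transporter genes 10 fell and 5 rose (median 0.25). Kcng4, a modifier subunit of voltage-gated potassium channels, was at 33.5, 47.9, 29.2 and 23.2 CPM in the sham libraries and 5.64, 8.70, 7.41 and 4.99 CPM in the T9 libraries (log2 change -2.30 ± 0.23, limma adjusted p = 2.6e-05). Atp1b1, a beta subunit of the sodium pump, was at 96.4, 126, 114 and 48.4 CPM in the sham libraries and 30.5, 32.1, 29.6 and 36.4 CPM in the T9 libraries (log2 change -1.5 ± 0.24, limma adjusted p = 0.00059). Neither overlapped. Kcna7, a voltage-gated potassium channel, changed by -1.40, and Abcc8, the sulfonylurea receptor, rose by 1.81 (1.20 with sham 2 and 3 only). Of 40 genes of excitation-contraction coupling 3 rose and 5 fell (median 0.03), with Cacng1, the gamma subunit of the muscle calcium channel, rising by 1.34. After centring 16 of the 40 were called lower, and with sham 2 and 3 only 12. Of 32 adrenergic and cAMP genes 4 rose and 3 fell: Pde4b (1.96) and Pde8a (1.80), which break down cAMP, rose. With sham 2 and 3 only, 7 of the 32 were called lower. In the cytoskeleton 8 of 28 genes rose and 3 fell (median 0.63), with Tubb6, a beta-tubulin, at 15.7, 21.8, 16.6 and 11.9 CPM in the sham libraries and 77.6, 62.8, 77.6 and 90.2 CPM in the T9 libraries (log2 change 2.24 ± 0.22, limma adjusted p = 1.8e-05), and Tppp3, which promotes tubulin polymerisation, changing by -2.27.

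Factors that muscle secretes fell in most of the cases measured. Of 17 secreted growth factor genes 10 fell and 0 rose (median -0.68), and 10 were called lower with sham 2 and 3 only. They were Vegfa, Vegfb, Fgf1, Fgfbp1, Ntf5, Metrn, Metrnl, Fndc5, Il15 and Sema6c. Fgfbp1 was at 15.4, 4.13, 8.32 and 15.3 CPM in the sham libraries and 1.46, 1.34, 0.964 and 0.678 CPM in the T9 libraries, without overlap (log2 change -3.12 ± 0.63, limma adjusted p = 0.0025). Ntf5, a neurotrophin that muscle makes under the control of nerve activity, was at 8.72, 6.72, 4.63 and 6.89 CPM in the sham libraries and 1.40, 1.44, 1.27 and 0.740 CPM in the T9 libraries, also without overlap (log2 change -2.46 ± 0.26, limma adjusted p = 3.6e-05). Metrn changed by -1.39 and Fndc5, the precursor of irisin, by -1.21. Of 21 polyamine and androgen-dependent genes 6 fell and 2 rose: Smox was at 927, 1030.0, 473 and 518 CPM in the sham libraries and 105, 107, 131 and 114 CPM in the T9 libraries (log2 change -2.61 ± 0.23, limma adjusted p = 9.7e-06) and Srm, spermidine synthase, rose by 1.5. Of 21 genes of circadian rhythm 3 rose, Cry2, Rora and Tef, and 1, Bhlhe41, fell, with 4 called lower with sham 2 and 3 only. The hour of dissection was not given in the sources used here.

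Matrix genes and markers of other cell types were called in numbers that differed between lists. Of 34 collagen and matrix genes 4 fell and 0 rose (median 0.21), beside 5.67% that fell and 11.1% that rose over all genes. After centring 8 of the 34 were called lower, and with sham 2 and 3 only 13. Col3a1, a fibrillar collagen, was at 54.1, 86.7, 81.3 and 72.02 CPM in the sham libraries and 40.5, 30.4, 35.6 and 58.1 CPM in the T9 libraries (log2 change -0.86 ± 0.21, limma adjusted p = 0.0072). Of 11 macrophage markers measured 2 rose, Cd68 and Gpnmb (2.08). Cd68, a lysosomal glycoprotein, was at 1.04, 0.452, 2.34 and 0.998 CPM in the sham libraries and 11.3, 7.53, 9.59 and 11.2 CPM in the T9 libraries, without overlap (log2 change 3.22 ± 0.47, limma adjusted p = 0.00031). The summed level of the 11 was 24.2 to 70.4 CPM in sham and 51.0 to 73.1 CPM after T9, with overlap, and the defining markers Adgre1, Fcgr1, Mpeg1, Aif1, Cd14, Laptm5 and Tyrobp are not in the table. Mrc1 and Lgals3 were called higher only as deposited (limma adjusted p = 0.22 and 0.21 after centring); that of Mrc1 reached an adjusted p of 0.05 without T9 replicate 4 or sham replicate 1. Whether other cells contribute to the change of Cd68 was not tested. Neutrophil markers (9 listed) and T and NK cell markers (10 listed) had 0 genes in the table, and of 9 B and mast cell markers only Ighm was there.

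For the remaining cell types, summed marker levels overlapped between groups except for satellite cells. These stem cells of muscle had 10 of 14 markers in the table, Pax7 not among them, with 3686 to 5004 CPM in sham and 5574 to 6582 CPM after T9. The median change of these 10 was 0.49 as deposited, beside 0.40 for all genes, and 0.09 after centring. The separation of the sums is thus to be read against the shift of the median gene. Of the 10, 4 rose (Myf5, Cdh15, Sdc4 and Ncam1), and the list holds Des and Ncam1, which muscle fibres are known to make too. Schwann cell markers (5 of 14 in the table, without Sox10 and S100b) summed to 68.8 to 250 CPM in sham and 150 to 198 CPM after T9, and endothelial markers (15 of 16) to 153 to 438 and 380 to 457 CPM. Fibroblast markers (14 of 14) summed to 682 to 970 and 897 to 1180 CPM, and smooth muscle and pericyte markers (11 of 13) to 382 to 725 and 642 to 758 CPM. Adipocyte markers (12 of 14) summed to 2388 to 3590 and 3232 to 4410 CPM, and red blood cell markers (5 of 7) to 164 to 662 and 303 to 358 CPM. Sham sums of several types were spread more widely than T9 sums. The part of other cells in the results above was not tested.

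The T3 lesion, higher in the cord, was set beside T9 in the same muscle. T9 and T3 libraries differed in 183 genes, 1.63% of those tested, and the count ran from 11 (without T9 replicate 4) to 194 (without T3 replicate 3) when single libraries were left out, with 15 to 101 for the other libraries. Aqp4, the water channel of fast fibres, was higher after T9 than after T3 (2.65 ± 0.40, adjusted p = 0.0094 by limma), a call that held under every setting tried. Chrnd (2.21), Chrna1 (1.13), Perm1 (-2.17) and Dok5 (-2.03) also differed, in the direction of their T9 minus sham change, but lost the call when some single libraries were left out, and those of Chrna1 and Dok5 also under other settings. Aqp4, Chrnd, Perm1 and Dok5 were picked for their large called differences from T3 in this same test. Myog (1.55 ± 0.48, adjusted p = 0.12 by limma), Fbxo32 (-0.71 ± 0.29, adjusted p = 0.26 by limma) and Trim63 (-1.09 ± 0.27, adjusted p = 0.065 by limma) did not pass the test. Of the 1247 genes that rose against sham, 30 were also higher than after T3 and 5 were lower. Of the 638 that fell, 33 were also lower and 8 were higher. Over all 11248 genes tested, 101 were called higher and 82 lower than after T3. T9 libraries enter the comparison with sham and that with T3, so the counts are a description.

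The triceps of the same mice gives the T9 change in a muscle above the lesion. Counts here rest on 12 mice, each giving 1 library from each muscle, and the fit takes the mouse into account as a block. The change differed between muscles in 819 genes, 7.28% of those tested, and in 426 (without T9 replicate 3) to 1377 genes when single mice were left out. The upper end is the count without the mouse of sham replicate 3, whose 2 muscles deviated in opposite ways (r = -0.753 across genes, against above 0.1 in the other 11 mice). Cdkn1a changed by 4.03 in the gastrocnemius and 0.33 in the triceps (difference 3.70 ± 0.74, adjusted p = 0.0081 by limma), and Eda2r by 3.67 and 0.02 (difference 3.65 ± 0.58, adjusted p = 0.0025 by limma). Trim63 changed by 1.61 and -0.29 (difference 1.90 ± 0.28, adjusted p = 0.0017 by limma). In the other direction, Perm1 changed by -3.67 and 0.93 (difference -4.60 ± 0.51, adjusted p = 0.00028 by limma) and Ppargc1a by -1.25 and 1.85 (difference -3.10 ± 0.47, adjusted p = 0.002 by limma). These 5 differences held under every setting tried. Those of Chrnd (3.85), Myog (3.75), Gadd45a (3.79), Aif1l (4.55), Myl2 (-3.80) and Fbxo32 (2.0) passed with all mice and were lost when some single mice were left out, with adjusted p up to 0.12. Of the genes named here, Cdkn1a, Perm1, Ppargc1a, Chrnd, Myog, Gadd45a, Aif1l and Myl2 were picked for their large called differences in this same test. Musk (difference 0.76 ± 0.60, adjusted p = 0.52 by limma) and Foxo3 (difference 0.51 ± 0.53, adjusted p = 0.64 by limma) did not pass. Of the 1247 genes that rose, 175 had a change above that in the triceps, and of the 638 that fell, 263 had a change below it. Over all 11249 genes tested, 433 were called above and 386 below. The gastrocnemius libraries that chose the 1247 and the 638 also enter this difference, so the counts are a description.

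**Figure D5:**
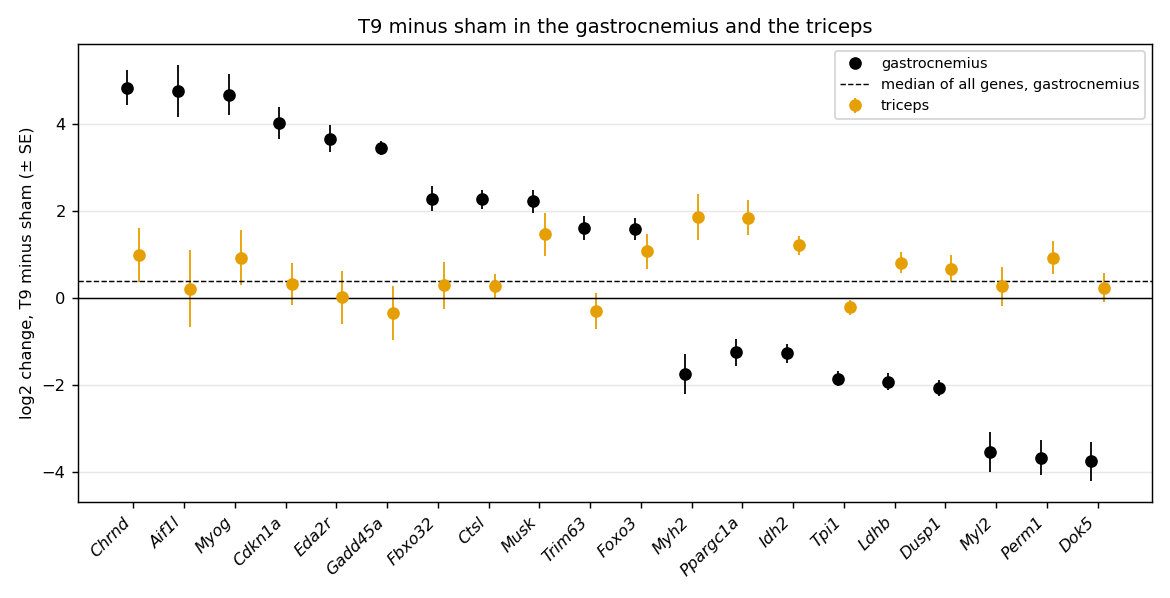
Log2 change after T9 (vertical axis, T9 minus sham, bars of 1 SE) of 20 genes in the gastrocnemius (black) and in the triceps of the same mice (orange). The dashed line marks the median of all genes in the gastrocnemius, 0.40. Perm1, Ppargc1a and Myh2 lie below 0 in the gastrocnemius and above 0 in the triceps, while the bars of Foxo3 and Musk lie close together in the 2 muscles.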

How the data were processed

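RNA of whole muscle was enriched for polyA and made into strand-specific libraries. The submitters' processing notes name HISAT2 2.1.0, featureCounts, Subread 1.5.1, limma and the GRCm38 build, with no annotation release. As deposited by the authors, expression is in log2 units, namely the log2 of CPM after 0.5 reads were added; whole reads were recovered for 100% of the entries within 0.01 reads. Of 11249 gene IDs, 11240 matched a symbol.

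A gene was tested where 4 or more libraries had a log2 of 0 or higher. Tests used limma 3.58.1 (R 4.3.3; variance trend; the 12 gastrocnemius libraries in 1 fit), two-sided, with adjusted p below 0.05 as the threshold. The T9 minus sham fit was tested on simulated data. These held no shift of the median gene, no length difference among sham libraries and no pairing by mouse, so those features were not checked. Voom weights on the recovered reads, added after seeing the data, called 4991 genes. The change between muscles was tested in 24 libraries of 12 mice, paired by the animal number in the descriptions.

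The members and gene lists were chosen with earlier results of these data known. Named genes are the 15 with the largest rise and the 15 with the largest fall, up to 4 members per list with the smallest adjusted p, and a panel. For the T3 and triceps comparisons, the genes with the largest called differences in each direction were added. Members listed by name beside a count are those that were called, and genes outside the rule with values of their own are said to be so. Transcript lengths are from GENCODE vM21 and promoter windows from RefSeq, GRCm38.p6. Of 31 genes looked up, 21 had a window. Replicate numbers do not pair the libraries (r of same-numbered sham and T9 libraries 0.338, 0.0757, 0.298 and -0.112). Each pair of libraries of a group differed beyond sampling noise (chi-square per degree of freedom 13.9 to 380). Results for a few genes are not reported here.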

Additional observations from a re-analysis of the deposited data

Results flagged for a closer look

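Among 366 groups of 4 libraries examined for named genes, 11 held 1 library that stood apart from the other 3. Chance alone gives about 1 in 20 such groups, so these are values to look at and no more. In sham, replicate 2 was low for Aif1l (0.904 CPM against 1.96 to 2.30 in the others, gap 0.8293 of the range) and for Lpl (448 against 661 to 707 CPM, 0.851). Sham replicate 4 was low for Dok5 (0.948 against 2.69 to 3.10 CPM, 0.876) and for Myoz3 (121 against 159 to 166 CPM, 0.858), and sham replicate 3 for Nrep (85.5 against 120 to 126 CPM, 0.864). After T9, replicate 1 was low for Nploc4 (126 against 175 to 186 CPM, 0.843) and high for Gstm2 (119 against 110.0 to 111 CPM, 0.926) and Acaa2 (77.1 against 64.4 to 65.7 CPM, 0.887). T9 replicate 2 was low for Pgd (60.0 against 61.8 to 62.1 CPM, 0.846) and high for Gbe1 (176 against 145 to 148 CPM, 0.898), and T9 replicate 4 was high for Akt1 (178 against 128 to 133 CPM, 0.878).

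The T9 change differed between the gastrocnemius and the triceps of the same mice in a test of the difference itself for 18 named genes. Over all genes tested, 7.28% were called. Chrnd, Aif1l, Gadd45a, Myog, Cdkn1a, Perm1, Dok5, Myl2, Myh2 and Ppargc1a were picked for their large called differences in this same test. Their passing was thus fixed beforehand. Differences, gastrocnemius minus triceps on the log2 scale, were above 0 for Chrnd (3.85), Aif1l (4.55), Gadd45a (3.79), Myog (3.75), Cdkn1a (3.70), Eda2r (3.65), Trim63 (1.90), Fbxo32 (2.0) and Ctsl (2.0). They were below 0 for Perm1 (-4.60), Dok5 (-4.00), Myl2 (-3.80), Myh2 (-3.61), Ppargc1a (-3.10), Idh2 (-2.48), Ldhb (-2.74), Dusp1 (-2.74) and Tpi1 (-1.64). Adjusted p by limma lay between 0.00023 (Idh2) and 0.034 (Fbxo32).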

How the results depend on the processing

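For T9 minus sham, 4864 calls became 2644 with median centring and 2718 (1458 higher, 1260 lower) with quantile normalization, and ran from 3384 to 5589 when single libraries were left out. With sham replicates 2 and 3 only there were 4095 (3381 higher, 714 lower). With the replicate block there were 4430, and T9 minus T3 went from 183 to 70 calls with it. Not every library correlated best with its own number. T9 minus T3 gave 1403 calls with library weights, 1059 with only the 8 libraries compared, and 11 to 194 with single libraries left out. The difference between muscles gave 819 calls, 543 without the mouse block, and 426 to 1377 without single mice. Of 154 called genes named for T9 minus sham, 146 kept the call in every alternative in which they were tested. Many of the 154 were named for a large change or a small adjusted p in this same test. That choice favours keeping the call, so the count says little about other genes. With centring 4 lost it, and with quantile normalization 6 (Pvalb, Nr3c1, Mrc1, Lgals3, mt-Co1 and mt-Co2). With the replicate block 3 lost it (Nr3c1, mt-Co1 and mt-Co2), with sham replicates 2 and 3 only 3, and in some single omission 5. Lrrc52 and Dok5 were below the filter, and so not tested, with sham replicates 2 and 3 only or without sham replicate 1, 2 or 3. Both were also untested where the filter asked for a log2 value of at least 2. Lrrc52 was untested without sham replicate 4 too, and Dok5 with only the 8 libraries compared. None of the 154 changed sign. Among uncalled genes, Chrne was -0.014 with centring and -0.038 with quantile normalization, and Myh4 was -0.15 with sham replicates 2 and 3 only. The cause of these moves was not tested. Depth of 15.5 to 21.4 M reads limits genes with few reads, such as Lrrc52 and Dok5.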
